A study of Rattus norvegicus with 9 samples.

Results

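The nuclear genes named Mrpl and Mrps encode the proteins of the mitochondrial ribosome, and their transcripts were followed in the renal outer medulla of 9 rats. Members were the loci that carry a single gene name beginning with Mrpl or Mrps and a digit, and 73 loci met this. A second, weaker locus of Mrpl36 and of Mrps22 was dropped, which left 71 genes among 30315 loci in all. They comprise 48 genes of the large subunit and 23 of the small subunit. All 71 had a mean of at least 1 FPKM (a level per transcript length, scaled to the fragments mapped in each library) and were tested.

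Mitochondrial ribosomes translate the few messages that the mitochondrial genome encodes, all of them for core subunits of the respiratory chain and the ATP synthase. Their RNAs come from the mitochondrial genome, while every one of their proteins is made from a nuclear gene, translated in the cytosol and imported. Part of these proteins have counterparts in bacterial ribosomes and the others occur only in mitochondria. The outer medulla is rich in mitochondria because its thick ascending limbs reabsorb salt at a high cost in ATP.

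All rats were of the salt-sensitive strain MCW SS. Each gave 1 RNA-seq library, and each group has 3 rats. Rats labelled 0.4% salt ate a diet with 0.4% NaCl and were collected after the same surgery, before any GapmeR or high-salt diet. The HS_SCR rats were given 4 mg/kg of a scrambled GapmeR (a control antisense oligonucleotide) into the kidney, followed by 7 days of a 4% NaCl diet. The HS_DT rats ate that diet for as long, after 2 mg/kg each of GapmeRs against Dnmt3a, which places methyl groups on DNA, and Tet3, which starts their removal. The labels give no ages, and the tissue is a mixture of cell types.

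The transcripts of neither target were lower in HS_DT than in HS_SCR. In the order 0.4% salt, HS_SCR, HS_DT, mean levels of Dnmt3a were 12.8 ± 0.624, 7.70 ± 2.33 and 9.999 ± 1.17 FPKM (SD, n = 3), and those of Tet3 were 9.16 ± 0.612, 6.24 ± 1.71 and 8.03 ± 0.465. From HS_SCR to HS_DT the log2 changes were 0.37 ± 0.18 and 0.34 ± 0.15 (SE), and neither passed (limma adjusted p = 0.303 and 0.271, exact two-sided permutation p = 0.3 for both, where 0.1 is the smallest possible). The groups are therefore called by their labels. The number of reads per library is unknown. The sum of FPKM ran from 685349 to 933862 over the 9 libraries, and a relative depth estimated from single-fragment values ran from 0.750 to 1.36. HS_SCR replicate 3 stood apart: mitochondrially encoded transcripts made up 20.6% of its FPKM sum against 25.4% to 31.9% elsewhere, and it lay at -51.5 on principal component 2 (22.1% of variance) against -2.34 to 24.0 elsewhere. Counts of genes called in HS_SCR against 0.4% salt are given with and without it. Its rat and that of HS_DT replicate 3 also carry numbers of the higher series (859 to 871), as do all 3 rats of 0.4% salt, whereas the other rats on high salt carry numbers from 781 to 785. Among the markers of the thick ascending limb, Umod (uromodulin) ranged from 381 FPKM, in HS_SCR replicate 3, to 2608. SLC12A1 (the Na-K-2Cl cotransporter) ranged from 451 to 975. Other markers were lower: Egf and Casr had means of 28.8 and 17.1 FPKM in 0.4% salt and 5.90 and 5.12 in HS_SCR.

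The upstream sequences of 5 members are shown. Mrpl23 and Mrpl52 had the largest rises among the members that passed the test in HS_SCR. Mrps18a, Mrps18b and Mrps18c are paralogs with unlike profiles. Mrpl43, which also passed, had no RefSeq promoter window. Each is the 200 bases before the RefSeq transcription start (build GRCr8), written 5′ to 3′ on the gene's strand. Capitals mark matches to CCGGAAG, the core bound by GABPA and other ETS factors, or to GCGCATGC, a core of the nuclear respiratory factor NRF1, on either strand.
Mrpl23, chr1:207116730-207116929, plus strand: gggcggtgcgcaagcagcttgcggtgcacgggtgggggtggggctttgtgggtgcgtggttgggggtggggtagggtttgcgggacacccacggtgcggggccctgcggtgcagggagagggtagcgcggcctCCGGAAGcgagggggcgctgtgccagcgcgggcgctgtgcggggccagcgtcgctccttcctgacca
Mrpl52, chr15:31852736-31852935, plus strand: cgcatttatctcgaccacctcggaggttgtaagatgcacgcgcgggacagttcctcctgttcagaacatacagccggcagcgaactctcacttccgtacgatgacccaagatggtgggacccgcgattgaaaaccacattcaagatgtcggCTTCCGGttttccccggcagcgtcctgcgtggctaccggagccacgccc
Mrps18a, chr9:22367381-22367580, minus strand: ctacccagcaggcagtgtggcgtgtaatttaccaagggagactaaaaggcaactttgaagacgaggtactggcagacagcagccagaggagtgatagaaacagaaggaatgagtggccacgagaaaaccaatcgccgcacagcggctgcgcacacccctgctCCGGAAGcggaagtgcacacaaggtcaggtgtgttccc
Mrps18b, chr20:2842806-2843005, plus strand: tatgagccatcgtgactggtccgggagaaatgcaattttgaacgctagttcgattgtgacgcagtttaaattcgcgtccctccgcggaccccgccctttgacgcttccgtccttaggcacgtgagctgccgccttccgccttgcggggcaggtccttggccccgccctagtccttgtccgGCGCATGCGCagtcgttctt
Mrps18c, chr14:9122907-9123106, minus strand: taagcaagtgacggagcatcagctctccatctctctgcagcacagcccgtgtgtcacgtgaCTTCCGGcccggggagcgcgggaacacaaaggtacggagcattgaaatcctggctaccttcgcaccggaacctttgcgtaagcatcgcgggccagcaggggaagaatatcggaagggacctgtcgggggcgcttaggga
Within these 200 bases the first 3 sequences and the last hold a single ETS core. The sequence of Mrps18b holds a palindrome in which the NRF1 core matches on both strands with overlap. The bases before the starts of Mrpl20, mrpl9 and Mrpl46, not printed, held neither core.

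RefSeq windows of 250 bases before to 50 after the start were found for 59 of the 71 members. The ETS core CCGGAAG was in the windows of 18 members (30.5%), against 10.7% of the windows of all 21851 protein-coding genes. The core AAGATGGC of YY1, a zinc-finger factor often found at the start of genes for ribosomal and mitochondrial proteins, was in 14 (23.7%), against 3.67%. GCGCATGC (NRF1) was in 5 (8.47%), against 3.11%, and ACTACAATT (THAP11/ZNF143) in 0, against 0.517%. At least 1 of these 4 cores was present in 30 of the 59 members (50.8%), compared with 16.5% of protein-coding genes and 13.6% of all 33469 windows. Mrps18b held the ETS and YY1 cores in this longer window, beside that of NRF1. Mrps18a held that of YY1 beside ETS, Mrpl46 that of YY1, Mrpl20 that of ETS, and mrpl9 none of the 4. The more common boxes were nearer the background: GGGCGG (SP1) was in 49.2% of members and 41.8% of protein-coding genes, and CCAAT in 42.4% and 38.0%. These letters were searched on both strands and describe the windows only. The median log2 change from 0.4% salt to HS_SCR was 0.09 over the 30 members with a core for NRF1, ETS or YY1 and 0.04 over the 29 without. The cores differed: it was 0.15 over the 5 members with NRF1 (0.06 without) and 0.10 over the 18 with ETS (0.05 without). For YY1 the order was the reverse, -0.02 over the 14 with it and 0.09 over those without. These differences were not tested.

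Several members have a start on the opposite strand within 300 bases of their own, 14 of the 59 in RefSeq. The share among all genes was not determined. Mrpl46 and Mrps11, 1 protein for each subunit, face each other with 234 bases between their starts. Mrpl46 ranged from 18.9 to 20.3 FPKM in 0.4% salt, measured 22.7, 22.7 and 17.9 in the HS_SCR rats, and ranged from 18.6 to 19.8 in HS_DT. Mrps11 ranged from 25.2 to 30.3, measured 29.2, 31.3 and 22.6, and ranged from 25.2 to 27.3. In both genes the third HS_SCR library was the lowest of the 9, as it was in 46 of the 71 members. Mrpl49 likewise faces Fau (186 bases), which encodes a protein of the cytosolic ribosome, and Mrpl47 faces Ndufb5 (244 bases), a subunit of respiratory complex I.

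The levels of the 71 members lay within a narrow band with a single gene far above it. The median of their mean levels was 35.3 FPKM, with quartiles of 22.3 and 58.2, and 66 members lay between 10 and 100 FPKM. Their median exceeded the level of 81.7% of all loci tested. Large and small subunit genes had like medians, 35.5 and 33.3 FPKM. Members with a bacterial counterpart had a median of 36.5 FPKM (46 genes) and those particular to mitochondria 28.9 FPKM (25 genes).

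**Figure D1:**
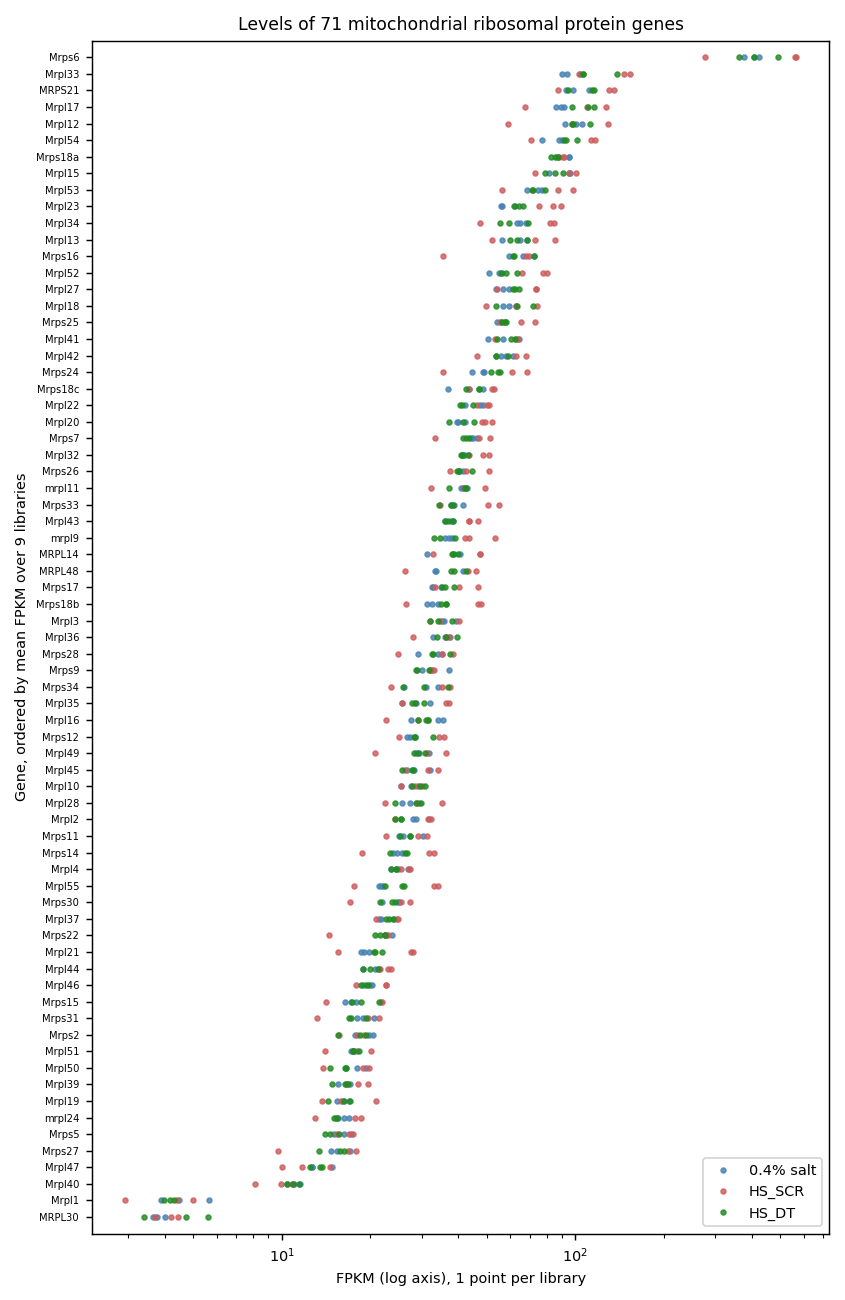
FPKM (log axis) of each of the 71 mitochondrial ribosomal protein genes, ordered by mean level, with 1 point per library coloured by group. Mrps6 stands alone at the top, MRPL30 and Mrpl1 lie below 10 FPKM, and HS_SCR points are spread wider than the others.

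Mrps6, a small-subunit protein with a bacterial counterpart (rn5 chr11:35815000-35872883), had the highest level. It measured 422, 407 and 375 FPKM in the 0.4% salt rats, 564, 562 and 276 in the HS_SCR rats and 492, 407 and 360.3 in the HS_DT rats. It alone made up between 10.3% and 14.8% of the summed FPKM of the members. RefSeq places Slc5a3, the transporter that brings the osmolyte myo-inositol into medullary cells, within the Mrps6 gene on the same strand. Fragments of these 2 genes cannot be told apart at this locus, so its level is uncertain as a measure of Mrps6. The next members were Mrpl33 at 116 FPKM, MRPS21 at 109 and Mrpl17 at 99.4, all with bacterial counterparts. Across the libraries MRPS21 ranged from 87.3 to 136 FPKM, Mrpl33 from 90.3 to 154 and Mrpl17 from 67.7 to 127, so the order of these 3 was within their spread.

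At the low end were MRPL30 at 4.17 FPKM and Mrpl1 at 4.30, followed by Mrpl40 at 10.5 and Mrpl47 at 12.9. MRPL30 measured 3.63, 4.02 and 3.75 FPKM in the 0.4% salt rats, 4.21, 4.43 and 3.72 in the HS_SCR rats and 4.73, 3.41 and 5.61 in the HS_DT rats. Mrpl1, which in bacteria forms the mobile stalk at the exit of the tRNA, ranged from 2.94 FPKM, in an HS_SCR library, to 5.65 FPKM, in a 0.4% salt library, and measured 4.17, 3.96 and 4.29 in HS_DT. The ranges of both genes overlapped between all groups. Both belong to the large subunit, in which each protein is present in a single copy except Mrpl12. The span of MRPL30 holds Lyg1 and Lyg2 as well, and 20 of the 71 members share their span with another locus of the table.

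Between 0.4% salt and HS_SCR, a comparison of high salt with scrambled oligonucleotide against the starting state, 3 members rose and 0 fell. The 3 were Mrpl23, Mrpl52 and Mrpl43, all of the large subunit. They were 4.23% of the 71, while 13.1% of all 14338 loci tested were called changed, 8.2% upward and 4.88% downward. Called means an adjusted p under 0.05 in limma, with Benjamini-Hochberg adjustment over all loci, on log2(FPKM + 1). The share of members called was below this background. Without adjustment, 7 members (9.86%) had a p under 0.05, against 32.0% of all loci.

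Mrpl23, which has a bacterial counterpart at the mouth of the tunnel through which the new protein leaves (rn5 chr1:222596333-222604103), had the largest change. It measured 56.5, 62.5 and 56.0 FPKM in the 0.4% salt rats, 89.2, 84.0 and 75.4 in the HS_SCR rats and 61.9, 66.3 and 64.2 in the HS_DT rats. Every HS_SCR library lay above every library of both other groups. The log2 change in HS_SCR was 0.50 ± 0.09 (SE; 95% interval 0.30 to 0.69; limma adjusted p = 0.0117), from 58.3 ± 3.61 to 82.9 ± 7.00 FPKM (SD, n = 3).

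Mrpl52, a protein with no bacterial counterpart (rn5 chr15:36955393-36958618), followed the same order of groups. Its levels were 56.2, 54.9 and 51.0 FPKM in the 0.4% salt rats, 79.9, 77.5 and 65.8 in the HS_SCR rats and 63.5, 58.2 and 55.8 in the HS_DT rats. Again the HS_SCR range lay apart from both other ranges, while those of HS_DT and 0.4% salt overlapped. The rise was 0.45 ± 0.10 (limma adjusted p = 0.0215).

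Mrpl43, also found only in mitochondria, rose less and with little spread. It measured 37.7, 35.9 and 38.3 FPKM in the 0.4% salt rats, 43.5, 46.8 and 43.4 in the HS_SCR rats and 36.0, 36.9 and 38.3 in the HS_DT rats. Its change was 0.25 ± 0.07 (limma adjusted p = 0.0475). Its span (rn5 chr1:272197416-272205529) is shared with Peo1, the gene of the mitochondrial DNA helicase Twinkle, whose mean was 7.10 FPKM. With FPKM rescaled to the sum without mitochondrially encoded loci, the change of Mrpl43 was -0.0065, and neither Mrpl23 (0.24, limma adjusted p = 0.0517) nor Mrpl52 (0.19, limma adjusted p = 0.0959) passed.

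Under that rescaling the median of all loci moved to -0.21, and 7 of the 71 members were called lower and 0 higher. Of all 14335 loci then tested, 2913 were called lower and 392 higher. The direction of the members' median change therefore depends on the scaling, 0.07 as deposited and -0.18 after rescaling, and it stood above the median of all loci both times (0.02 and -0.21). It was -0.01 after quantile normalization, where the median of all loci was 0.03, and thus lay below that of all loci. With the trend on locus width removed it was -0.03, again below that of all loci (-0.01). In that setting 2 members were called higher and 1 lower, against 916 and 691 of all 14338 loci. Without 0.4% salt replicate 1, 0 of the 71 passed (limma). Without 0.4% salt replicate 2 or 3, or HS_SCR replicate 2, 1 passed.

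Ranges of FPKM lay apart between the groups, higher in HS_SCR, for 7 members (9.86%, against 19.1% of all loci) and lower for 0 (against 14.5%). Beside the 3 called, these were Mrpl20, Mrpl32, mrpl9 and Mrpl44, all of the large subunit. Mrpl20, whose bacterial counterpart binds ribosomal RNA early in assembly, measured 39.5, 42.2 and 39.8 FPKM in the 0.4% salt rats, 52.0, 49.1 and 48.0 in the HS_SCR rats and 41.4, 37.2 and 45.2 in the HS_DT rats. Its change of 0.29 ± 0.09 did not pass (limma adjusted p = 0.0590). mrpl9 measured 37.9, 36.0 and 37.2, then 42.1, 43.4 and 53.4, then 33.0, 34.7 and 38.9, a change of 0.31 ± 0.11 in HS_SCR (limma adjusted p = 0.0865). Here the third HS_SCR library was the highest of the 9. Mrpl32, which is cut by a mitochondrial protease before it joins the ribosome, changed by 0.19 ± 0.08 (limma adjusted p = 0.126).

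**Figure D2:**
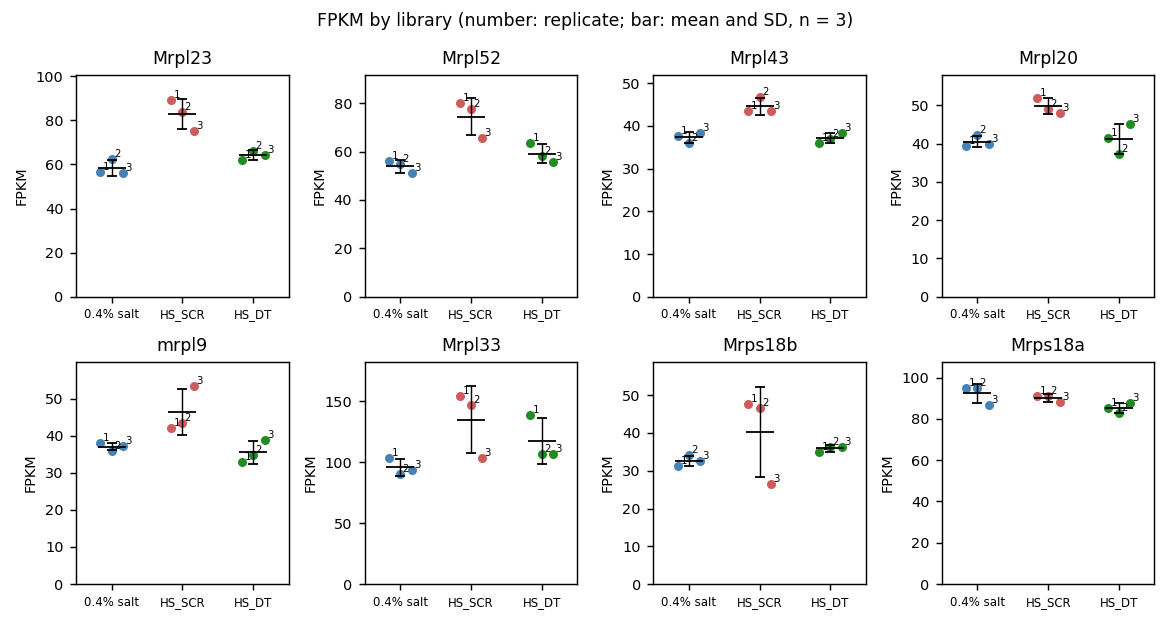
FPKM of 8 members in each library, grouped by label, with the replicate number beside each point and the mean ± SD (n = 3) as a bar. In Mrpl23, Mrpl52, Mrpl43, Mrpl20 and mrpl9 all HS_SCR points lie above those of both other groups, whereas HS_SCR replicate 3 of Mrps18b falls to 26.6 FPKM, below every 0.4% salt library.

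The other members changed little on average in HS_SCR. Log2 changes ran from -0.25 in Mrps16 to 0.50 in Mrpl23, with 48 above 0 and 23 below. They were smaller than 0.25 in size for 62 of 71 (87.3%), against 54.5% of all loci. The 95% interval lay within ±0.5 for 42 members, so a change larger than that lies outside the interval for these genes. The large subunit had a median change of 0.07 with 3 rises among 48, and the small subunit 0.09 with 0 rises among 23. Genes with a bacterial counterpart and those particular to mitochondria also had like medians, 0.08 and 0.07.

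Within HS_SCR the members did not behave alike in the 3 rats. Against the mean of the 0.4% salt libraries, the median deviation of the 71 genes on the log2 scale was 0.22 in HS_SCR replicate 1, 0.18 in replicate 2 and -0.26 in replicate 3. In 0.4% salt it ran from -0.07 to 0.04, and in HS_DT from -0.02 to 0.06. HS_SCR replicate 3 lay below both other HS_SCR libraries in 67 of 71 members (94.4%), against 44.0% of all loci. It was the lowest of all 9 libraries in 46 members (64.8%, against 24.1%). Replicates 1 and 2 together lay above every 0.4% salt library in 43 (60.6%, against 34.3%). Both at once, 2 libraries above and 1 below every 0.4% salt library, held for 26 members (36.6%, against 8.91%).

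**Figure D3:**
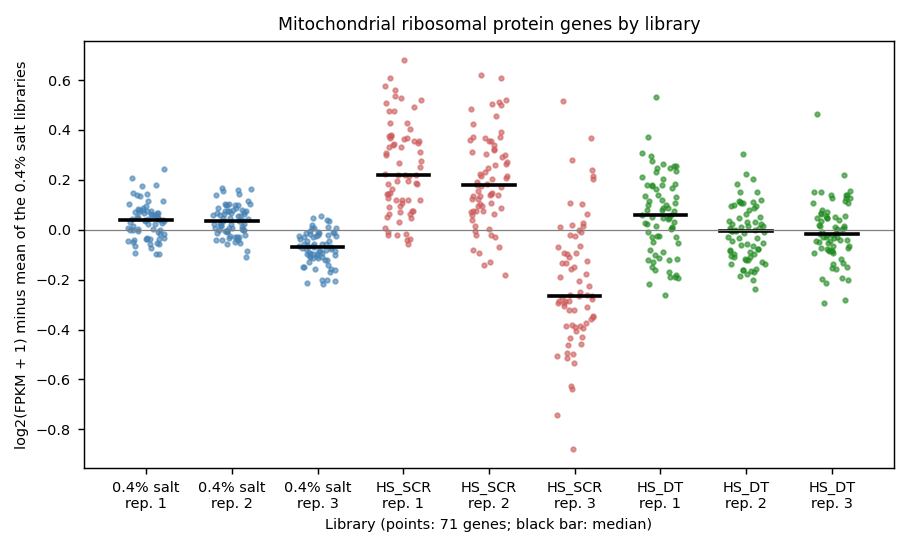
Deviation of log2(FPKM + 1) from the mean of the 0.4% salt libraries for the 71 members in each of the 9 libraries, with the median as a black bar. Medians of HS_SCR replicates 1 and 2 are 0.22 and 0.18, that of HS_SCR replicate 3 is -0.26, and the other 6 lie between -0.07 and 0.06.

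On the log2 scale, HS_SCR replicate 3 minus the mean of the other 2 had a median of -0.45 over the members (quartiles -0.60 and -0.25) and of -0.02 over all loci (quartiles -0.34 and 0.29). The widest gap was at the locus of Mrps6 (-1.02), whose level is uncertain as a measure of that gene. Mrps16, a small-subunit protein with a bacterial counterpart, measured 72.4, 66.6 and 59.3 FPKM in the 0.4% salt rats, 68.0, 69.5 and 35.4 in the HS_SCR rats and 72.5, 61.2 and 61.7 in the HS_DT rats. Mrpl12, the stalk protein that also binds the mitochondrial RNA polymerase, measured 105, 101 and 92.5, then 129.7, 97.5 and 59.1, then 112, 97.4 and 98.1. In these genes HS_SCR held the lowest library, and for Mrpl12 also the highest. Only mrpl9, Mrps5 and Mrpl44 were highest in replicate 3 among the HS_SCR libraries. Mrps5 measured 16.9, 15.4 and 17.5 FPKM there.

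The gap of HS_SCR replicate 3 was present at every locus width. Members under 5 kb had a median gap of -0.48 (n = 21), where other loci with a single symbol had -0.24. From 5 to 20 kb the values were -0.32 (n = 28) and -0.15, and from 20 to 50 kb -0.45 (n = 11) and -0.01. Over 50 kb, members were at -0.53 (n = 11) while other loci were at 0.11. The small subunit had a median gap of -0.59 and the large subunit one of -0.40. As a share of the FPKM sum without mitochondrially encoded loci, the members took 0.471% in this library, and between 0.576% and 0.637% in the other 8.

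Without HS_SCR replicate 3, 26 of the 71 members rose from 0.4% salt to HS_SCR (36.6%), against 20.5% of the 14320 loci then tested. All 3 members called with 9 libraries were among them. They included 16 of 48 large-subunit and 10 of 23 small-subunit genes. The members' median change was then 0.18, and 0 fell. These rises are in FPKM as deposited. As a share of the FPKM sum without mitochondrially encoded loci, the members took 0.626% and 0.586% in HS_SCR replicates 1 and 2. In 0.4% salt that share ran from 0.597% to 0.625%. The rescaling was not run with this library left out. The remaining 2 HS_SCR rats carry lower rat numbers and all 0.4% salt rats higher ones, so the diet and the number series cannot be told apart in this comparison.

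Among the 26, Mrpl33 had the largest change. It measured 104, 90.3 and 93.8 FPKM in the 0.4% salt rats, 154, 147 and 103 in the HS_SCR rats and 139, 107 and 106 in the HS_DT rats. With all libraries its change was 0.47 ± 0.17 (limma adjusted p = 0.0971), and without HS_SCR replicate 3 it was 0.64 (limma adjusted p = 0.00795). Mrpl55, a protein particular to mitochondria, measured 21.8, 21.4 and 22.1, then 32.9, 34.0 and 17.6, then 26.2, 25.6 and 22.5. Its change went from 0.30 (limma adjusted p = 0.370) to 0.60 (limma adjusted p = 0.00225) without that library. Mrps24, of the small subunit, measured 49.1, 48.6 and 44.6, then 68.7, 60.9 and 35.5, then 54.7, 51.5 and 55.3, with 0.16 and 0.44 as the changes. In all 3 genes the first 2 HS_SCR libraries lay above 0.4% salt, and the third lay within or below its range. Mrpl55 and Mrps24 are named after their values were seen.

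**Figure D4:**
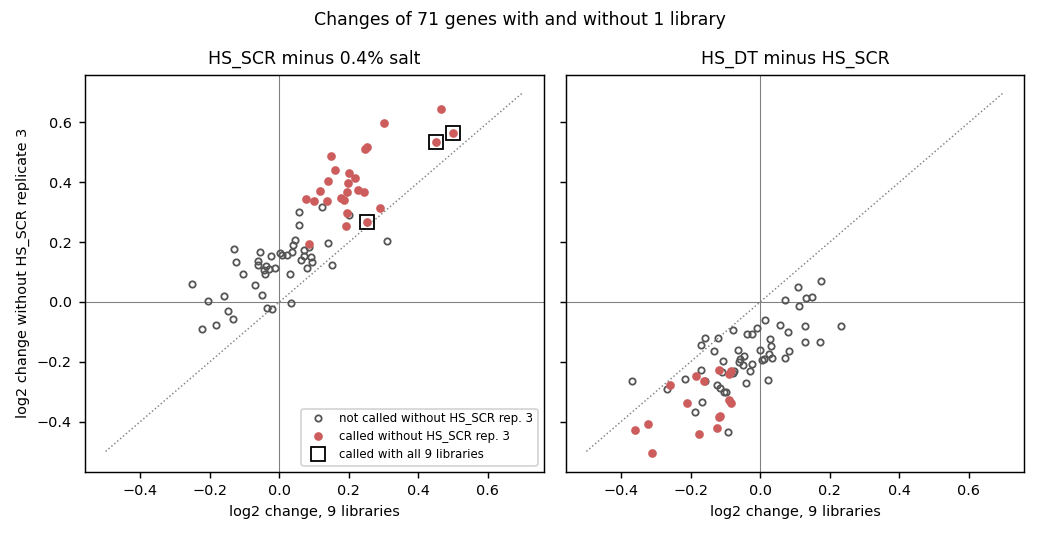
Log2 change of each of the 71 members with all 9 libraries (x) and without HS_SCR replicate 3 (y), for HS_SCR minus 0.4% salt (left) and HS_DT minus HS_SCR (right). Filled points passed without that library (26 and 16), squares passed with all 9 (3 and 0), and most points lie above the diagonal on the left and below it on the right. Each gene's distance from the diagonal follows by arithmetic from the gap of that library. It is equal in size and opposite in sign between the panels.

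The 3 paralogs of bacterial S18 differ in where they sit and in how they varied. Mrps18a lies in the large subunit despite its name, as does Mrps30, while Mrps18b and Mrps18c belong to the small subunit. Mrps18a measured 95.2, 95.1 and 86.8 FPKM in the 0.4% salt rats, 91.3, 90.8 and 88.0 in the HS_SCR rats and 85.3, 82.7 and 87.7 in the HS_DT rats. Mrps18b measured 31.4, 34.1 and 32.4, then 47.7, 46.7 and 26.6, then 35.0, 36.3 and 36.4. Mrps18c measured 48.5, 43.4 and 37.0, then 51.9, 52.9 and 43.3, then 47.2, 42.6 and 47.1. Mrps18a thus kept within a band of 82.7 to 95.2 FPKM, whereas Mrps18b spanned 26.6 to 47.7 within HS_SCR alone. In HS_SCR their log2 changes were -0.04, 0.25 and 0.20, and none passed (limma adjusted p = 0.753, 0.402 and 0.279). Without HS_SCR replicate 3 that of Mrps18b was 0.52 and passed (limma adjusted p = 0.00196), and the others did not (-0.02 and 0.29). The spans of Mrps18a (shared with Rsph9) and Mrps18b (shared with Atat1, Ppp1r10 and RGD1302996) hold other genes. Mrps30 measured 25.1, 24.9 and 21.9, then 27.3, 25.4 and 17.1, then 24.4, 23.8 and 21.7, with overlapping ranges throughout.

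Between HS_SCR and HS_DT, which compares the targeting with the scrambled oligonucleotides on the same diet, limma called 0 members and 1 of all loci (0.00697%). Without adjustment 7 members (9.86%) had a p under 0.05, against 19.1% of all loci. The median log2 change was -0.08, against -0.00 over all loci, with 49 members lower and 22 higher. After quantile normalization it was 0.01, and after rescaling without mitochondrially encoded loci 0.11, where all loci stood at 0.17. The 71 changes ran from -0.37 in mrpl9 to 0.23 in Mrps16, and 65 (91.5%) were smaller than 0.25 in size, against 66.6% of all loci.

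This comparison shares the HS_SCR libraries with the preceding one, so values in the 2 are not independent. Mrpl23 stood at -0.36 ± 0.09 (limma adjusted p = 0.0882), Mrpl52 at -0.32 (0.137), Mrpl43 at -0.26 ± 0.07 (0.110) and mrpl9 at -0.37 ± 0.11 (0.126). Ranges lay apart, lower in HS_DT, for 11 members (15.5%, against 12.5% of all loci) and higher for 0 (against 9.1%). The 11 were Mrps18a, Mrpl23, Mrpl52, Mrpl22, Mrpl20, Mrpl32, Mrpl43, mrpl9, Mrps9, Mrpl4 and Mrpl44. Only Mrps9 among them belongs to the small subunit. In 47 of the 71 members (66.2%, against 33.8%) all HS_DT libraries lay between the lowest and the highest HS_SCR library.

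Without HS_SCR replicate 3, 16 members (22.5%) were called lower in HS_DT, against 9.29% of loci. They were Mrpl2, Mrpl21, Mrpl23, mrpl24, Mrpl27, Mrpl32, Mrpl34, Mrpl43, Mrpl46, Mrpl52, Mrpl53, Mrpl55, Mrps14, Mrps18b, Mrps25 and Mrps33. Of these, 14 were also among the 26 higher than 0.4% salt without that library, a count that shares the HS_SCR libraries. Mrpl23 stood at -0.43 (limma adjusted p = 0.0146), Mrpl52 at -0.41 (0.0173) and Mrpl43 at -0.28 (0.0294).

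From 0.4% salt to HS_DT, limma called 0 members and 0.0% of loci, and 0 members had an unadjusted p under 0.05, against 7.49% of loci. The median change was 0.01 over the members and over all loci, with 36 members higher and 35 lower. Changes ran from -0.22 to 0.28, and 69 of 71 (97.2%) were smaller than 0.25, against 79.4% of all loci. The 95% interval lay within ±0.5 for 55 members. The fit uses 1 spread for all 3 groups, so these p-values and intervals also carry the spread of HS_SCR. The members' median SD on the log2 scale was 0.27 there, against 0.09 in 0.4% salt and 0.08 in HS_DT. Few small p-values here are thus no measure of how alike these groups were. The highest change was that of Mrpl33 (0.28 ± 0.17, limma adjusted p = 0.761) and the lowest that of Mrpl2 (-0.22 ± 0.11, limma adjusted p = 0.713). Mrpl2, a core protein near the site of peptide bond formation, measured 28.7, 31.7 and 28.0 FPKM in the 0.4% salt rats, 31.5, 32.4 and 24.3 in the HS_SCR rats and 24.4, 25.4 and 25.4 in the HS_DT rats. Ranges lay apart for 14 members, 9 higher (12.7%, against 14.2%) and 5 lower (7.04%, against 9.64%), and overlapped for 57.

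Spread between rats was widest in HS_SCR. The median SD on the log2 scale was 0.09 in 0.4% salt, 0.27 in HS_SCR and 0.08 in HS_DT over the members. Over all loci it was 0.10, 0.23 and 0.11.

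Other genes of mitochondrial translation were read from lists beside the members, and the background for their counts in HS_SCR is again 8.2% of loci rising and 4.88% falling. Without HS_SCR replicate 3 it is 20.5% rising and 15.7% falling. Of 5 tested subunits of the same ribosome that carry other names, such as Gadd45gip1, 0 passed in HS_SCR (limma) and the median change was 0.13. With that library left out, 4 of the 5 rose, with a median of 0.33, and 2 fell from HS_SCR to HS_DT. Gadd45gip1 itself went from 0.23 (limma adjusted p = 0.308) to 0.42 (limma adjusted p = 0.00928). The 22 factors of ribosome assembly and RNA modification had 2 rises, Malsu1 (0.36, limma adjusted p = 0.0402) and NGRN (0.33, limma adjusted p = 0.0400), and a median of 0.12. Malsu1 acts in the maturation of the large subunit. Leaving that library out, 7 of the 22 rose and 1 fell. After rescaling without mitochondrially encoded loci, 2 of the 22 were called lower and 0 higher, and the median was -0.12. All loci then had 392 rises and 2913 falls among 14335.

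Of 13 translation factors, 2 fell in HS_SCR: Taco1, an activator of the message for cytochrome oxidase subunit I (-0.85 ± 0.16, limma adjusted p = 0.0161), and Gfm2, a ribosome recycling factor, which went from 7.79 ± 0.339 to 4.71 ± 0.802 FPKM (-0.63 ± 0.12, limma adjusted p = 0.0149). Both also passed without HS_SCR replicate 3 (-0.71 and -0.74), where 3 of the 13 fell and the median went from -0.09 to 0.02. Of 14 aminoacyl-tRNA synthetases of mitochondria, 2 fell, among them Iars2 (-0.71, limma adjusted p = 0.0458), and the median was -0.15. In the fit without HS_SCR replicate 3, 3 of them fell. After the rescaling, 5 of each list fell. Of 14 genes for mitochondrial DNA and transcription, 0 passed (limma), with a median of -0.06, and without HS_SCR replicate 3, 2 rose and 2 fell. After the rescaling 4 of them fell.

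Among 13 regulators of mitochondrial biogenesis, Ppargc1a, the coactivator that drives respiratory genes, fell from 49.9 ± 5.62 to 20.5 ± 9.51 FPKM (-1.33 ± 0.29, limma adjusted p = 0.0239). Esrrg, a nuclear receptor that works with it, fell by 1.10 on the log2 scale (limma adjusted p = 0.00690), and Myc rose by 1.16 (limma adjusted p = 0.00566). In all, 1 rose and 3 fell, and without HS_SCR replicate 3 it was 3 and 5, with Ppargc1a at -1.66, Esrrg at -1.04 and Myc at 1.07. Mitochondrial ribosomal protein genes had a median change of 0.07 in the 9 libraries.

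The 72 nuclear subunits of the respiratory chain had 0 rises and 3 falls (Ndufs1, Sdha and Uqcrc2) and a median of -0.07. These values depended on the scaling and on 1 library. The list had 22 falls and a median of -0.33 after rescaling without mitochondrially encoded loci, where 2913 of all 14335 loci fell. It had 20 falls and a median of -0.35 after quantile normalization, where 674 of all 14338 loci fell. There were 0 rises in the list in both. Without HS_SCR replicate 3 it had 3 rises and 4 falls, and the median was 0.13. By HS_SCR library the medians were 0.20, 0.05 and -0.49, against 0.22, 0.18 and -0.26 for the members.

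The proteins of the cytosolic ribosome gave another picture. Of 81 tested genes, 71 rose in HS_SCR and 0 fell, with a median of 0.65. After rescaling without mitochondrially encoded loci 58 rose, against 392 of all 14335 loci. With the width trend removed 63 rose, and after quantile normalization 6, against 916 and 910 of all 14338 loci. When HS_SCR replicate 3 was left out, 74 rose, and 68 fell from HS_SCR to HS_DT, where 0 passed with all libraries (limma). By HS_SCR library their medians were 0.64, 0.66 and 0.65. The third library, low for the members, was level with the others for the cytosolic genes. In HS_DT the cytosolic medians were 0.16, 0.18 and 0.19. Cytosolic ribosomal protein genes have many processed copies in the genome, which makes their levels uncertain, and a difference between the 2 sets was not tested.

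**Figure D5:**
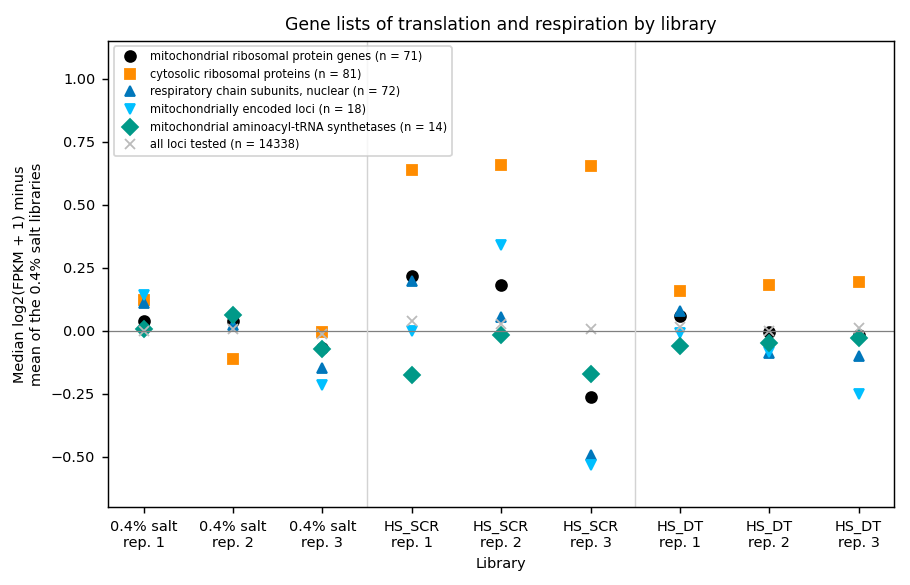
Median deviation of log2(FPKM + 1) from the mean of the 0.4% salt libraries for 5 gene lists and all loci tested, by library. Cytosolic ribosomal protein genes lie at 0.64 to 0.66 in all HS_SCR libraries, whereas mitochondrial ribosomal protein genes are at 0.22, 0.18 and -0.26 and respiratory chain genes at 0.20, 0.05 and -0.49.

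Markers of cell types moved in the same libraries, and in whole tissue fewer cells of a type and less RNA per cell cannot be told apart. Of 13 thick ascending limb markers 4 fell and 1 rose in HS_SCR, and their summed level was 3021 to 4673 FPKM in 0.4% salt, 1431 to 3416 in HS_SCR and 2698 to 3683 in HS_DT, with HS_SCR replicate 3 the lowest and none at 0. Of 18 proximal tubule markers 6 fell, and the sums over the 20 in the table were 2935 to 6857, 235 to 1968 and 1312 to 4534 FPKM, with Slc5a12 at 0 in at least 1 library. Of 15 macrophage markers 10 rose, with sums of 1957 to 2268, 3341 to 4791 and 3133 to 3696 FPKM. Of 5 erythroid markers 4 rose, with sums of 501 to 773, 1346 to 8722 and 1839 to 2522 FPKM. None of the macrophage and erythroid markers was at 0. Of 11 principal cell and 9 intercalated cell markers 0 passed (limma), and of 9 endothelial markers 2 rose. With HS_SCR replicate 3 left out, 4 thick ascending limb markers fell and 1 rose, and 7 proximal tubule markers fell. The rises were 13 in the macrophage and 4 in the erythroid list. In that fit 1 principal cell marker rose, 1 intercalated cell marker rose and 2 fell, and 2 endothelial markers rose. Over all loci 20.5% rose and 15.7% fell in that fit, and 8.2% and 4.88% with all libraries. After rescaling without mitochondrially encoded loci, 7 thick ascending limb, 13 proximal tubule and 3 intercalated cell markers fell, against 2913 of all 14335 loci. The rises were then 8 macrophage, 4 erythroid and 1 endothelial, against 392 of all loci. The part of these shifts in the values of the members was not tested, and once the proximal tubule score of each library entered the fit, 0 of the 71 members were called in HS_SCR (limma), as were 0 of all loci.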

How the data were processed

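RNA of the renal outer medulla of 9 individual rats was sequenced, 1 library per rat, 3 rats in each of 3 groups taken from the labels. The authors deposited FPKM per locus, and the tools were Trim Galore 0.2.5 and Cufflinks 2.2.1 on build rn5, per the submitters' processing notes. Not given in the sources used here are the aligner, the annotation, the strand setting and whether libraries were scaled to each other. Libraries were matched to columns by the rat number in their titles, and 1 further value column that repeats HS_DT replicate 3 at all 30315 loci was not used. Read counts are unknown, so no counting interval is given. Relative depth came from loci averaging under 0.15 FPKM, where 81.8% to 86.5% of ratios between libraries lay within 2% of a ratio of whole numbers up to 6.

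Values were taken as log2(FPKM + 1), with a pseudocount of 1, and the 14338 loci averaging 1 FPKM or more were kept. Fold changes on this scale understate the change of low genes. They were tested by limma-trend (limma 3.58.1, R 4.3.3), in 1 unpaired fit of the 3 groups (6 residual degrees of freedom, 8.54 after moderation). All p-values are two-sided, with Benjamini-Hochberg adjustment across the loci tested, and an adjusted p under 0.05 is called. For Dnmt3a and Tet3 an exact permutation test was added. The script was tested on simulated data. Ranges lie apart where every library of a group exceeds every library of the other.

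The members, the gene lists and the tests were chosen with earlier results of these data known. Named are members called with ranges apart, or up to 4 with the smallest p in a comparison, the 4 highest and 4 lowest in level, the Mrps18 paralogs, Mrpl12 and Mrps30, and up to 3 called genes of each other list. Members named beyond this rule were chosen after their values were seen. One gene of the other lists that met the rule is not reported here by name. The 5 loci that combine a member's name with another gene's are outside the comparisons. Alternatives were other pseudocounts (0.1 and 0.5), no filter or a minimum of 5 FPKM, quantile normalization, median-ratio rescaling, rescaling to the sum without mitochondrially encoded loci, robust moderation, library weights, the 2 groups alone, a replicate block, the rat number series, the proximal tubule score, removal of the locus-width trend (lowess, span 0.3) and leaving out each library. Leaving out members that share their span, and the lists without HS_SCR replicate 3, were chosen after seeing the data. Promoter windows and gene positions on GRCr8 are from RefSeq.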

Additional observations from a re-analysis of the deposited data

How the results depend on the processing

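Over the alternatives, 246 values of the main results kept their direction and their side of the threshold or stayed within the spread between replicates, while 16 moved by more, 11 lost and 8 gained the threshold and 1 changed sign. The number of members called in HS_SCR against 0.4% salt was 3. It was 7, all lower, with scaling to the sum without mitochondrially encoded loci (median change -0.18), where 2913 of 14335 loci were called lower. It was 12 with library weights, and 0 with the 2 groups alone or with the proximal tubule score. Leaving out each library gave 0 (without 0.4% salt replicate 1) to 26 (without HS_SCR replicate 3). Between HS_SCR and HS_DT, 0 members were called, 6 with library weights, 1 with the rat number series and 0 to 16 when a library was left out, with 16 without HS_SCR replicate 3. From 0.4% salt to HS_DT, library weights called 2, and the median moved to -0.0599 with scaling without mitochondrially encoded loci, -0.14 with the rat number series and -0.0450 with the width trend removed. The change of Mrpl43 in HS_SCR was -0.0065 under the first of these. The fall of Dnmt3a in HS_SCR by 0.70 on the log2 scale (limma adjusted p = 0.0367) did not pass with no filter or in the 2 groups alone (-0.70 in both), with the rat number series (-0.43) or with the proximal tubule score (-0.79), and ran from -0.91 to -0.53 when a library was left out. From HS_SCR to HS_DT it passed with library weights (0.57) and ran from 0.20 to 0.57, and against 0.4% salt it passed at -0.32 with library weights. Tet3 in HS_SCR passed with scaling without mitochondrially encoded loci (-0.74) and with library weights (-0.64), and ran from -0.70 to -0.39. From HS_SCR to HS_DT it passed with library weights (0.52) and ran from 0.22 to 0.53. The weights did not converge fully, and the causes were not tested. With the replicate block, 2 members were called in HS_SCR and 0 in the other comparisons, with medians of 0.07, -0.08 and 0.01. The labels do not say that replicate numbers pair rats, and residuals of same-numbered libraries correlated above 0.1 in 5 of 9 pairs (-0.08 to 0.26). Pairs of unlike number ran from -0.31 to 0.24, and their next highest value was 0.13. With the 51 members that share their span with no other locus of the table, 2 were called in HS_SCR. These 51 still include Mrps6, whose gene holds Slc5a3. Unknown depth and 3 rats a group limit what could be detected.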

Other observations

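Loci that join a member's name with that of a neighbouring gene belong in no comparison, since the fragments of the 2 genes cannot be separated there. There are 5. The locus of MRPS23 and Cuedc1 measured 87.2, 80.1 and 76.2 FPKM in the 0.4% salt rats, 100.6, 96.3 and 67.2 in the HS_SCR rats and 79.9, 80.0 and 76.8 in the HS_DT rats. That of Mrps36 and Cdk7 measured 90.2, 88.9 and 79.3, then 94.8, 79.6 and 63.4, then 77.2, 72.5 and 80.2. Mrps36 was named as a ribosomal protein and is known as a part of the 2-oxoglutarate dehydrogenase complex. That of Mrpl38 and Fbf1 measured 29.1, 33.7 and 32.4, then 38.1, 36.6 and 24.1, then 35.1, 32.6 and 30.6. In these 3 loci the third HS_SCR library was the lowest of the 9. The locus of Mrps35 and Klhl42 had a mean of 26.7 FPKM and that of Mrps10 and Guca1b one of 10.9 FPKM. In the last, the third HS_SCR library was the highest of its group and the others were at 8.13 and 9.54 FPKM.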
